A study of Mus musculus with 2 samples.

Results

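The 10 genes described here encode small proteins of the S100 family (S100a4, S100a6, S100a10 and S100a11), the galectins Lgals1 and Lgals3, the annexins Anxa1, Anxa2 and Anxa5, and the intermediate filament protein vimentin (Vim). They were selected on the basis of their levels in the cells of the male mice, as genes that may mark monocyte-derived cells or be shared with lymphocytes, and all 10 were among the 16819 gene symbols of the deposited matrix of male cells. The cells were CD45+ DAPI- cells sorted from dorsal root ganglia (DRGs) of naive, WT BALB/cAnNRj mice (3 male and 3 female, age not given in the labels). The study's methods name cervical, thoracic and lumbar DRGs for flow cytometry and do not state the spinal levels for the sequenced cells. Cells of each mouse carried a hashtag antibody, and all were run in a single lane of the 10x 3′ v3 assay, so that no capture batch separates the mice. The cells of the male mice (481, 772 and 1415 cells in male mouse 1, 2 and 3) are given as a description with no test, because they served to choose the genes. The 1073 cells of the female mice (382, 313 and 378 in mouse 1, 2 and 3) did not, and they were used for the tests. The mouse is the replicate throughout, and a lower level in summed cells cannot be told apart from fewer expressing cells unless shares of cells are given.

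Most S100 proteins, though not all, bind calcium and then dock onto partner proteins. S100a10 forms a complex with Anxa2 beneath the plasma membrane, S100a11 binds Anxa1, and S100a4 binds non-muscle myosin. Annexins bind negatively charged membrane lipids when calcium rises: Anxa5 recognizes phosphatidylserine, and Anxa1 is an anti-inflammatory mediator stored in neutrophils. Galectins bind β-galactoside sugars on glycoproteins. Fcrls is a gene of resident macrophages and microglia, Ccr2 encodes the chemokine receptor that carries monocytes out of the bone marrow and into tissue, and the S100, galectin and vimentin genes are widely read as signs of recent monocyte origin, of cell activation or of motility.

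In GRCm38 (GENCODE M21) the 4 S100 genes lie on chromosome 3. S100a4 (chr3:90603771-90606045, plus strand) and S100a6 (chr3:90612882-90624181, plus strand) are inside a stretch of 185 kb. Of the S100 genes listed for this report, 10 lie in that stretch, among them the neutrophil genes S100a8 and S100a9. S100a11 (chr3:93520488-93526287, plus strand) and S100a10 (chr3:93555080-93564643, plus strand) are farther along the chromosome. Anxa5 is on the same chromosome (chr3:36448923-36475894, minus strand). The others are at Lgals1 (chr15:78926725-78930465, plus strand), Lgals3 (chr14:47367751-47386160, plus strand), Anxa1 (chr19:20373428-20390944, minus strand), Anxa2 (chr9:69453620-69491795, plus strand) and Vim (chr2:13573927-13582826, plus strand). S100a4 overlaps Gm42674 on the same strand, and processed pseudogenes of S100a11 and Lgals1 are annotated, and how the counting treated reads shared with these is not given in the sources used here. Promoter sequence was matched in RefSeq's table (GRCm38.p6) for 8 of the 10 genes (not S100a10 or Lgals1). The stretches upstream of 4 genes are printed because S100a4 and S100a6, which are neighbors, differed in neutrophils, and because S100a11 and Anxa2 were high there too. Each runs 5′ to 3′ up to the first annotated start, with no annotated exon in it, and capitals mark matches on either strand to the AP-1 motif (TGANTCA), the GC box (GGGCGG), the TATA box motif (TATAAA) and the motif CCAAT.
S100a4 (chr3:90603520-90603769, plus strand): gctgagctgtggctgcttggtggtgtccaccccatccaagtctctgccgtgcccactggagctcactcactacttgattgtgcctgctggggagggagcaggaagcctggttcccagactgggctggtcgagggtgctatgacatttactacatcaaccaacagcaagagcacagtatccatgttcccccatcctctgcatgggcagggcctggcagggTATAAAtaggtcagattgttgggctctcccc
S100a6 (chr3:90612644-90612881, plus strand): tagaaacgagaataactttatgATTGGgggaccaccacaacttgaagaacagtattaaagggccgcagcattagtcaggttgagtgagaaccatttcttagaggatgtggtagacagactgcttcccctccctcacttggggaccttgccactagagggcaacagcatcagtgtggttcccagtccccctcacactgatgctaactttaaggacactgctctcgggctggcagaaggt
S100a11 (chr3:93520246-93520487, plus strand): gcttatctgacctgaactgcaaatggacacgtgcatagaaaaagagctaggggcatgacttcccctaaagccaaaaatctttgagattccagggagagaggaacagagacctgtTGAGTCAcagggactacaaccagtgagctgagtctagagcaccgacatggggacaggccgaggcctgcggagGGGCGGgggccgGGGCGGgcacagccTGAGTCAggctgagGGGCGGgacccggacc
Anxa2 (chr9:69453433-69453619, plus strand): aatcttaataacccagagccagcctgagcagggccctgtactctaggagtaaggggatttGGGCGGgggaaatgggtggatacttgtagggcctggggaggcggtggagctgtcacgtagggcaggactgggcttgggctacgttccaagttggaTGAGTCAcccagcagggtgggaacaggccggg
No marked matches overlapped. In the 250 bases before the RefSeq start, S100a11 had 2 AP-1 matches and 3 GC boxes, Anxa2 had 1 AP-1 match, 3 GC boxes and 1 TATA box (the stretch printed for Anxa2 ends before 2 of the GC boxes and the TATA box), S100a4 had 1 TATA box and S100a6 had 1 CCAAT match. Lgals3 and Anxa1, also high in neutrophils, are not printed because their RefSeq stretch lies past the first annotated start. Lgals3 had 0 AP-1 matches, 1 GC box and 1 CCAAT match, and Anxa1 had 0 AP-1 matches and 1 TATA box. Vim had 0 AP-1 matches, 1 TATA box and 2 CCAAT matches, and Anxa5 had 0 matches to each motif. Of 32851 such promoters, 6.75% held the AP-1 letters, 32.7% the GC box, 12.4% the TATA box and 33.8% CCAAT. These matches describe letters only.

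Cells were classed by raw UMIs. Macrophages had C1qa, C1qb and C1qc at 0.5% or more of their UMIs and were split by UMIs of Fcrls and Ccr2, neutrophils had S100a8 and S100a9 at 5% or more, and monocytes, DCs, B cells and T cells were set by markers that include none of the 10 genes. The 9 classes held 2506 of the male and 981 of the female cells, and B cell, T cell, monocyte and DC classes rested on at least 3 of their listed markers (2 for DCs). Monocytes also had Cd74, H2-Aa, H2-Ab1 and H2-Eb1 together under 1% of their UMIs, and DCs had them at 2% or more. Cells rich in these MHC class II transcripts were thus kept out of the monocyte class by rule. Male mice gave 4239463 to 13508078 UMIs and female mice 2272539 to 2959426. Transcripts that set a gate were also counted in cells outside it. C1qa had means of 32.5 to 153 CPM (UMIs of the gene per 1000000 UMIs of the summed cells) outside macrophages against 5874 CPM or more inside them. S100a8 had means of 241 to 537 CPM in macrophages. The gates themselves hold these levels apart. S100a8 in female monocytes was at 235, 2448 and 150.2 CPM in mouse 1, 2 and 3. Just under and over the C1q gate, 13 and 18 pooled male cells had Vim at 1539.8 and 1750.1 CPM and S100a6 at 780.0 and 639 CPM. By male mouse S100a6 was at 1724, 234 and 352 CPM under this gate and 0, 994 and 483 over it. The 10 and 11 pooled female cells differed more, with Vim at 5107 and 800 CPM and S100a6 at 4240 and 409. Vim in female mouse 2 went the other way, at 1056 and 1968 CPM. Just under and over the neutrophil gate, pooled male cells had S100a6 at 4425 and 2466 CPM. The monocyte class was small in female mice (8, 8 and 7 cells), and 25 of 124 male and 6 of 23 female monocytes also held at least 3 markers of granulocyte precursors (Elane, Mpo, Prtn3 and others), whose summed level was 1709, 2005 and 9691 CPM in the 3 female mice. T cell markers summed to 331 CPM in the monocytes of female mouse 3, where 2 cells held at least 2 of them and Cd3e was at 0. Every comparison with monocytes was repeated without these cells (15 female monocytes left, 4 of them in mouse 3), an alternative chosen after seeing the data.

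S100a4, which is widely used as a marker of motile and mesenchymal cells, had its highest mean in monocytes. In male mice it was at 999.6, 1242 and 941 CPM (mouse 1, 2 and 3) in monocytes, at 712, 452 and 382 in DCs and at 379, 500.3 and 615 in T cells. Monocytes lay above every other class in all 3 mice, and DCs and T cells overlapped. Ccr2+Fcrls- macrophages were at 52.9, 155 and 97.3 CPM and Fcrls+Ccr2- macrophages at 4.38, 2.59 and 11. Neutrophils (0.83, 24.3 and 24.8) and B cells (64.9, 6.13 and 0) overlapped with the Fcrls+Ccr2- macrophages. S100a6, its neighbor on chromosome 3, was instead high in neutrophils (3263, 3644 and 4677 CPM) and monocytes (2999, 3426 and 3327), which overlapped. T cells (1016, 1991 and 2523) and DCs (2204, 1794 and 1139) followed, then the macrophage classes and B cells, which overlapped among themselves, and last, by its mean, the Fcrls+Ccr2- class (74.5, 55.9 and 74.7).

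S100a10 and S100a11, the partners of Anxa2 and Anxa1, differed most in neutrophils. S100a10 was at 13.3, 22.8 and 41.3 CPM there, the lowest of the 9 classes, and at 1126, 1053 and 1279 in monocytes, 1216, 1051 and 1078 in DCs and 636, 1219.5 and 1329 in T cells, which overlapped. B cells followed at 401, 459.8 and 340.1 CPM, above all 4 macrophage classes by their means. S100a11 was highest in neutrophils (2523, 2551 and 3148 CPM), with DCs (1236, 1137 and 1276) and monocytes (1049, 975 and 1228) next and T cells at 309, 459 and 610.0. B cells (126, 129 and 119) lay, by their means, between the Ccr2+Fcrls- and the Fcrls+Ccr2- macrophages.

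**Figure D1:**
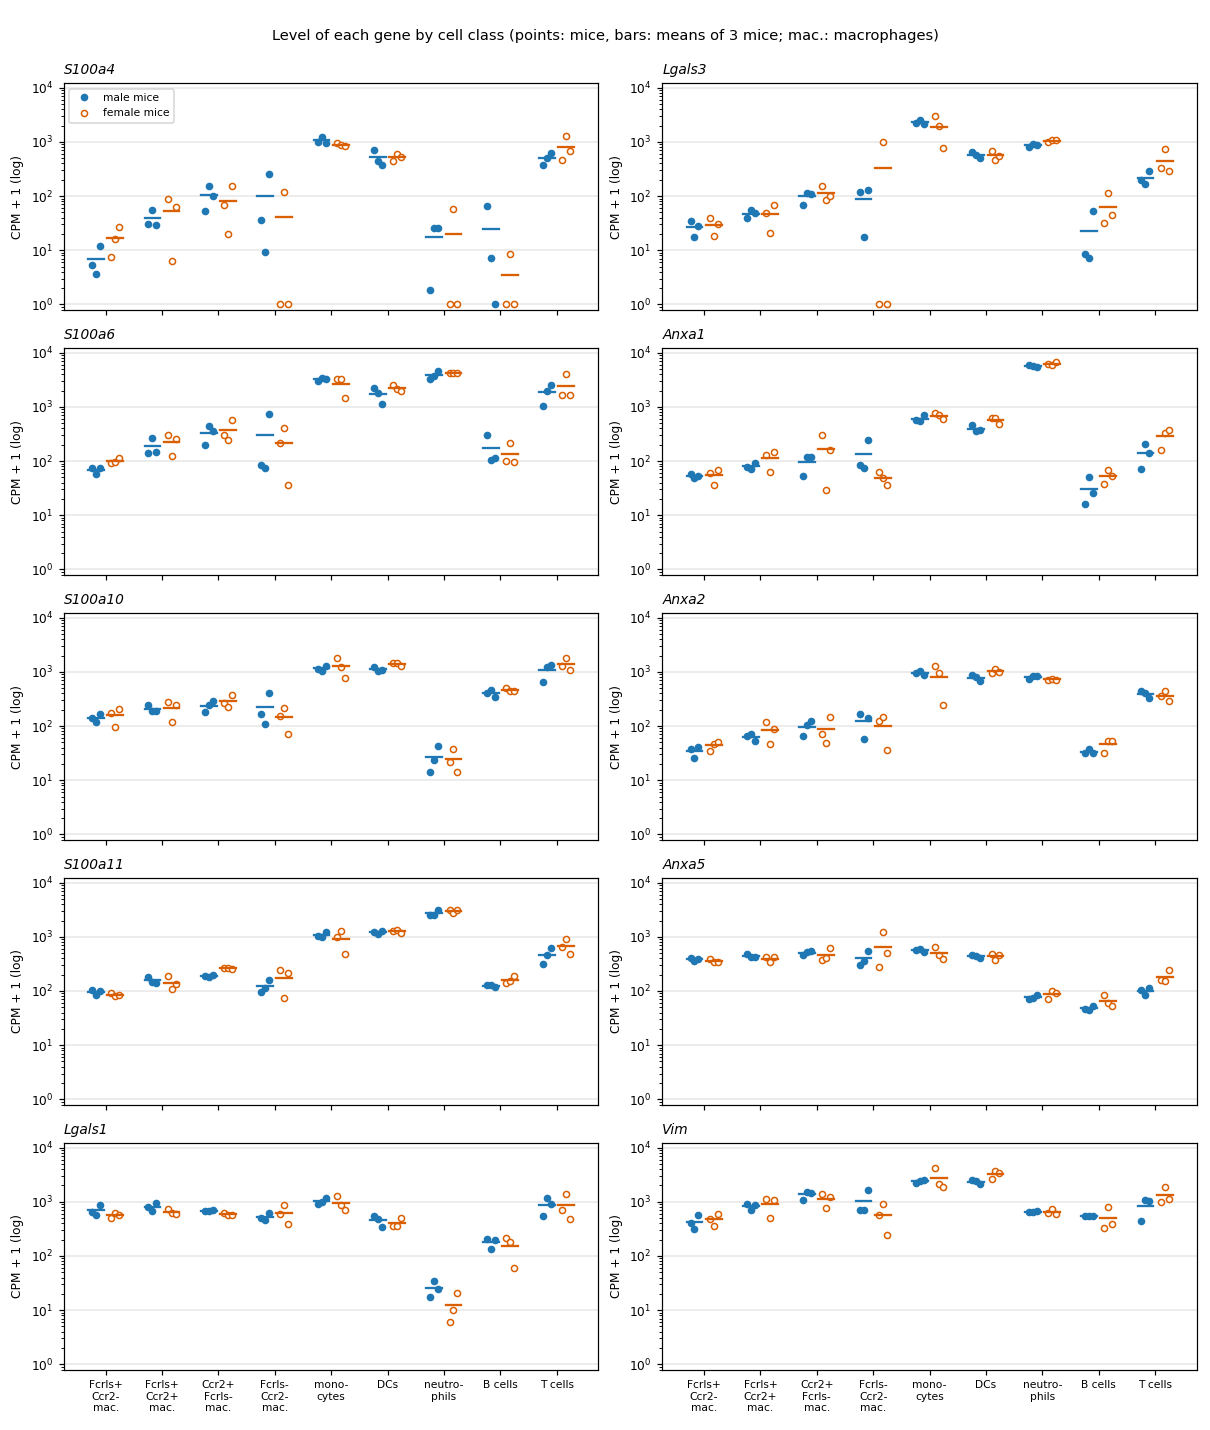
Level of each gene in 9 cell classes as CPM + 1 on a log axis, with 1 point per mouse (filled, male; open, female) and a bar at the mean of 3 mice. S100a4 has its highest mean in monocytes, which overlap with T cells in female mice, S100a11 and Anxa1 are highest in neutrophils, and Lgals1 is lowest in neutrophils, in both sexes.

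The 2 galectins had different patterns. Lgals3, a galectin that macrophages make on activation, was at 2194, 2557 and 2130.5 CPM in monocytes of male mice, 805, 929.7 and 861 in neutrophils, 640.4, 571 and 495 in DCs and 198, 167 and 287 in T cells, and each of these classes lay above the next. Ccr2+Fcrls- macrophages had 68.8, 115 and 108 CPM, Fcrls+Ccr2- macrophages 33.6, 16.6 and 26.5 and B cells 7.64, 6.13 and 52.5. Lgals1 varied less across macrophages and monocytes, at 655, 581 and 865 CPM in Fcrls+Ccr2- macrophages, 677, 661 and 691 in Ccr2+Fcrls- macrophages and 923, 975 and 1151 in monocytes, which lay above both. T cells (554, 1188 and 912) overlapped with all of these. DCs (542, 483 and 342), B cells (206, 135 and 196) and neutrophils (16.6, 33.4 and 23.1) were lower, in that order, without overlap between DCs, B cells and neutrophils.

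Among the annexins, Anxa1 was highest in neutrophils, at 5914, 5631 and 5401 CPM, and was 561, 552 and 705 in monocytes, 453, 358 and 372 in DCs and 55.5, 47.6 and 51.8 in Fcrls+Ccr2- macrophages. Anxa2 was at 958, 1047 and 866 CPM in monocytes, above neutrophils (749.6, 843 and 842) and DCs (862, 809.9 and 679), which overlapped. S100a8 and S100a9 had means of 144121 and 198028 CPM in male neutrophils, which lowers the CPM of every other gene there. In female mice the TMM scaling factors were 0.568 to 0.594 in neutrophils and 1.24 to 1.35 in monocytes. The rank of neutrophils by CPM may thus depend on the scaling, for Anxa2 and for the other genes. T cells followed at 444, 407 and 328, and Fcrls+Ccr2- macrophages (36.5, 24.3 and 40.8) and B cells (30.5, 36.8 and 30.4) were lowest and overlapped. Anxa5 separated macrophages, monocytes and DCs (means of 384 to 563 CPM in 6 classes, each overlapping with the next in order) from T cells (105, 83.4 and 115), neutrophils (69.7, 74.4 and 83.3) and B cells (45.8, 42.9 and 52.5). Vim was at 2246, 2390.0 and 2568 CPM in monocytes and 2489.9, 2391 and 2110.3 in DCs, 1084, 1530.4 and 1483 in Ccr2+Fcrls- macrophages, 535, 552 and 542 in B cells and 414, 315 and 563 in Fcrls+Ccr2- macrophages.

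Macrophages with UMIs of both Fcrls and Ccr2, and those with neither, were described but not tested. Macrophages with both had S100a4 at 30.1, 54.5 and 28.6 CPM and Vim at 902, 695 and 888 in male mice, above the Fcrls+Ccr2- macrophages without overlap, and S100a4 at 86.8, 5.40 and 62.8 and Vim at 1140.0, 504 and 1098 in female mice, where both genes overlapped with that class. Macrophages with neither, which held 67 male and 27 female cells, had S100a4 at 35.4, 8.22 and 254 and S100a6 at 82.5, 73.9 and 735 CPM in male mice, with mouse 3 far above the other 2.

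To gauge how far neutrophil transcripts were counted in other cells, levels were set against those in neutrophils. S100a8 and S100a9 outside neutrophils were at 0.129% to 0.428% and 0.167% to 0.304% of their level in neutrophils in male mice. Anxa1 was at 0.526% of its neutrophil level in B cells, 0.914% in Fcrls+Ccr2- macrophages and 10.7% in monocytes, and S100a11 was at 3.48% in Fcrls+Ccr2- macrophages, its lowest. Both were above the percentages of S100a8 in the same classes. S100a8 and S100a9 set the neutrophil gate, however, which itself holds down their levels in the other classes. The comparison therefore cannot tell neutrophil transcripts counted in other cells from transcripts that those cells made.

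The first question was which genes separate the macrophages with Ccr2 from those with Fcrls. In male mice, 8 of the 10 genes were higher in Ccr2+Fcrls- than in Fcrls+Ccr2- macrophages without overlap of the mice (9.68% of 5178 genes with a mean of at least 20 CPM behaved so), but these cells had chosen the genes and nothing is read from the count. The ratio of means in male mice was 17.0 for S100a4, 4.84 for S100a6, 3.81 for Lgals3, 3.17 for Vim and 0.965 for Lgals1. In female mice, edgeR's quasi-likelihood test on UMIs summed per mouse and class, with Benjamini-Hochberg adjustment over 3709 genes, called 4 of the 10 genes higher and 0 lower, where 1.73% of all genes were called higher and 2.53% lower. The median log2 fold change of the 10 genes was 1.42, against -0.06 over all genes.

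S100a11 was at 269, 270.4 and 255 CPM in Ccr2+Fcrls- macrophages of female mouse 1, 2 and 3 and at 89.3, 79.8 and 83.4 in Fcrls+Ccr2- macrophages, without overlap, a log2 fold change of 1.61 ± 0.27 (SE, adjusted p = 0.000137). S100a6 was at 303, 242 and 579.7 and 89.3, 93.3 and 111 CPM, also without overlap (1.90 ± 0.37, adjusted p = 0.000864). Both kept their calls without each mouse in turn. Anxa1 (303, 28.0 and 162 against 59.1, 35.6 and 66.1 CPM) rose by 1.62 ± 0.38 (adjusted p = 0.00637), but the level in mouse 2 was below that of all 3 mice in the other class. Vim (1418, 774 and 1244 against 481, 351 and 592 CPM) rose by 1.24 ± 0.32 (adjusted p = 0.0138) without overlap. The calls of Anxa1 and Vim depended on female mouse 1, without which 2 of the 10 genes and 71 of all genes were called, Anxa1 at 0.95 (adjusted p = 0.499) and Vim at 1.13 (adjusted p = 0.167), in place of 158 genes. Without mouse 2, 5 of the 10 and 103 of all genes were called, and 71 genes with thinned cells.

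S100a4 and Lgals3, with the largest fitted differences of the 10 genes between the macrophages, did not pass. S100a4 was at 68.9, 18.6 and 155 CPM in Ccr2+Fcrls- and 6.56, 15.3 and 26.0 in Fcrls+Ccr2- macrophages of female mice (log2 fold change 2.27 ± 0.78, adjusted p = 0.0997), and Lgals3 was at 151, 83.9 and 100.5 and 38.1, 17.0 and 29.3 CPM (1.94 ± 0.67, adjusted p = 0.101). Lgals3 did not overlap between the classes, and S100a4 did. S100a4 was called without mouse 2 (2.67, adjusted p = 0.00378) and Lgals3 with a C1q gate at 1% (adjusted p = 0.0183). Both were called without a filter on low counts (adjusted p = 3.87e-05 and 4.28e-05) and with cells thinned to 2000 UMIs, where S100a10 was called as well (adjusted p = 0.0476) and the calls of S100a11 and Anxa1 were lost (adjusted p = 0.0976 and 0.257). S100a10 (0.81 ± 0.31), Anxa2 (1.0 ± 0.46), Anxa5 (0.34 ± 0.24) and Lgals1 (0.04 ± 0.26) were not called with all UMIs, with 95% intervals of 0.18 to 1.44, 0.06 to 1.95, -0.14 to 0.83 and -0.49 to 0.58.

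S100a4 in the Ccr2+Fcrls- macrophages came from a few cells. In male mice, 82.4% of its 136 UMIs were in 16 of 156 cells, with up to 27 in a cell, and 33 cells had any. In female mice, 84.4% of 32 UMIs were in 6 of 55 cells. The same number of cells, those with the most UMIs of each gene in turn, held 64.8% of the UMIs of S100a6, 36.8% of Vim and 29.5% of Anxa5 in male mice, the lowest share of the 10 genes. For the genes called between these macrophages, 6 female cells held 72.1% of the 68 UMIs of Anxa1, with up to 19 in a cell. They held 61.4% for S100a6, 42.9% for Vim and 38.6% for S100a11. By UMIs in the cell, S100a4 was at 3.54, 7.35 and 20.1 CPM in pooled male macrophages with at least 10, 4 to 9 and 1 to 3 Fcrls UMIs and no Ccr2, and at 1.22, 5.00 and 69.9 CPM in female ones, so that in pooled cells it was higher the fewer Fcrls UMIs a bin held. By mouse, the bin with 1 to 3 Fcrls UMIs was at 0, 5.11 and 39.7 CPM in male mice (18 UMIs in all) and that with 4 to 9 at 13.5, 2.21 and 10.5, so that the pooled rise between them came mostly from mouse 3 and mouse 1 went the other way. In female mice the bin with 1 to 3, at 19.8, 71.3 and 128 CPM, lay above both other Fcrls bins in each mouse. Vim was at 417, 476 and 584 CPM in those bins, and at 1075, 1308 and 1648 in cells with 1, 2 to 4 and at least 5 Ccr2 UMIs and no Fcrls. In female mice Vim was at 383, 494, 681, 981, 1343 and 1125 CPM in the same 6 bins. In pooled cells Vim was thus lower in each Fcrls bin than in each Ccr2 bin in both sexes. Female mouse 2 departed from this, with 879.7 CPM in its bin of 1 to 3 Fcrls UMIs and 327 and 570.3 in its bins of 1 and at least 5 Ccr2 UMIs, which held 3 and 8 cells, and male mouse 1 had no cell with 1 Ccr2 UMI. The pooled order of the Ccr2 bins differed between the sexes. The bin with 1 Ccr2 UMI held 21 male and 12 female cells.

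**Figure D2:**
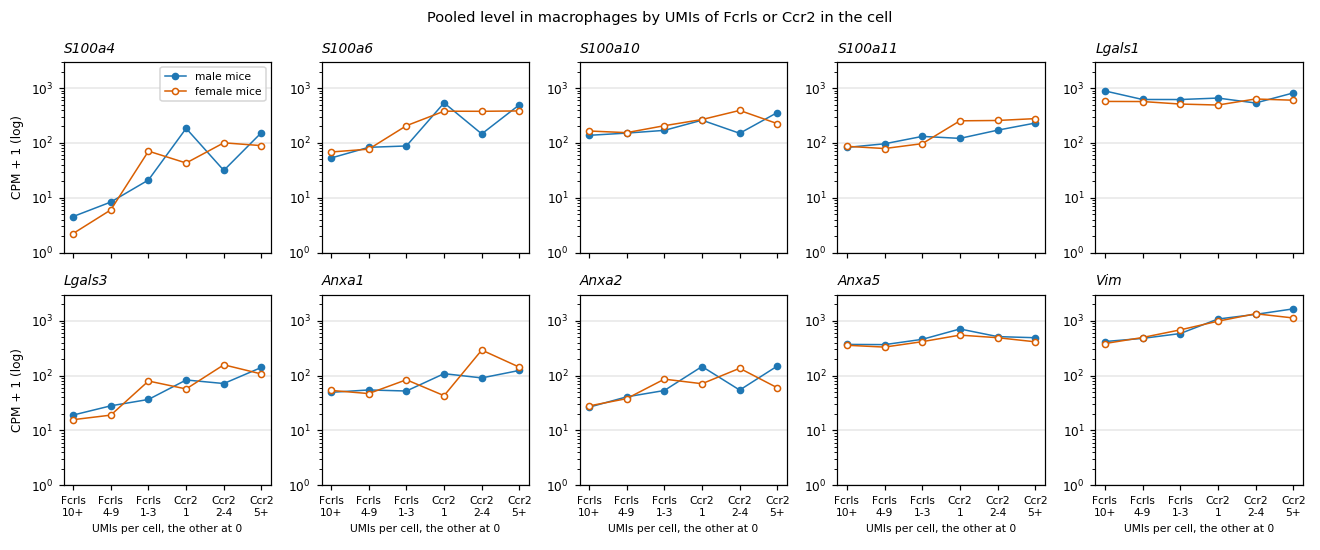
Pooled level of each gene (CPM + 1, log axis) in macrophages by UMIs of Fcrls (with Ccr2 at 0) or of Ccr2 (with Fcrls at 0), in male (filled) and female (open) mice. In these pooled cells Vim is lower in each Fcrls bin than in each Ccr2 bin in both sexes, which does not hold within female mouse 2, and Lgals1 runs from 491 to 888 CPM over all bins.

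Monocytes were compared with both kinds of macrophages. In male mice, all 10 genes were higher in monocytes than in Fcrls+Ccr2- macrophages without overlap (40.3% of genes) and 9 of 10 than in Ccr2+Fcrls- macrophages (38.5%), which again describes the cells that chose them. The male ratio of means over Fcrls+Ccr2- macrophages was 177 for S100a4, 89.7 for Lgals3 and 47.5 for S100a6. For Lgals1 it was 1.45, and its log2 ratio went from 0.54 to -0.02 without the monocytes that held precursor or T cell markers. In female mice, 8 of the 10 genes rose and 0 fell in monocytes against Fcrls+Ccr2- macrophages (14.9% of all genes were called higher and 19.9% lower), and 7 rose and 0 fell against Ccr2+Fcrls- macrophages (9.63% and 14% of all genes were called higher and lower). Median log2 fold changes were 3.04 and 1.60 over the 10 genes, and -0.09 and -0.04 over all genes.

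Lgals3 was at 2998, 1953 and 781 CPM in female monocytes, above all macrophages of both classes, with log2 fold changes of 5.55 ± 0.50 over Fcrls+Ccr2- (adjusted p = 2.59e-11) and 3.61 ± 0.52 over Ccr2+Fcrls- macrophages (adjusted p = 1.42e-06). S100a4 was at 964, 872 and 826 CPM, 5.22 ± 0.54 and 2.95 ± 0.57 above them (adjusted p = 8.65e-10 and 0.000159). S100a6, at 3273, 3216 and 1442 CPM, was 4.25 ± 0.35 and 2.35 ± 0.35 higher (adjusted p = 3.13e-12 and 2.15e-06). In all 3 genes every female mouse had monocytes above both macrophage classes, and mouse 3, whose monocytes had the highest sum of precursor markers, was the lowest of the 3. In mouse 1, the 2 monocytes with no Ly6c2 UMI had Lgals3 at 8063 and S100a6 at 9344 CPM. Its 6 monocytes with a Ly6c2 UMI were at 1954 and 2023 CPM.
Anxa2 (1264, 951 and 240.4 CPM) was also lowest in mouse 3 and rose by 3.79 ± 0.33 and 2.78 ± 0.39 (adjusted p = 1.64e-11 and 9.71e-07). Anxa1 (762, 716 and 586 CPM) rose by 3.15 ± 0.33 and 1.52 ± 0.35 (adjusted p = 9.13e-10 and 0.00124), the second of which was 2.42 without mouse 1. S100a10 (1807, 1250.0 and 766 CPM) rose by 2.50 ± 0.28 and 1.68 ± 0.30, and S100a11 (980.3, 1276 and 481 CPM) by 2.93 ± 0.25 and 1.33 ± 0.26, with adjusted p of at most 0.000198.

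Vim, Lgals1 and Anxa5 were each not called between monocytes and at least 1 of the macrophage classes. By CPM, Lgals1 and Vim in monocytes still lay above both classes without overlap of the female mice, and Anxa5 overlapped with both. Vim (4229, 2135 and 1893 CPM) was called against Fcrls+Ccr2- macrophages (2.04 ± 0.31, adjusted p = 2.09e-06) and not against Ccr2+Fcrls- macrophages (0.80 ± 0.32, adjusted p = 0.0642). Lgals1 (1304, 859 and 691 CPM) was called against neither (0.29 ± 0.26 and 0.25 ± 0.28, 95% intervals -0.23 to 0.82 and -0.32 to 0.82). Anxa5 (648, 456 and 391 CPM) was called against neither as well (0.01 ± 0.25 and -0.33 ± 0.27, 95% intervals -0.49 to 0.52 and -0.88 to 0.22). All 15 calls between monocytes and macrophages held without the cells that held other markers and without each mouse. Scaling mattered for these comparisons: with library totals in place of TMM factors, the median of all genes moved by 0.504 and 0.467 on the log2 scale, the share of calls that were higher in monocytes went from 42.7% to 72.3% and from 40.8% to 72.9%, and Lgals1 (0.82 and 0.76) and Vim (1.31 over Ccr2+Fcrls- macrophages) passed. Vim over Ccr2+Fcrls- macrophages also passed without mouse 3 and without the filter on low counts.

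The second question was which genes lymphocytes share. B cells of female mice differed from Fcrls+Ccr2- macrophages in 3 of the 10 genes, with 1 higher and 2 lower, where 25.9% of all genes were called higher and 29.4% lower. The median log2 fold change of the 10 genes was -0.37, against 0.00 over all genes. S100a10 was at 509.9, 434 and 435 CPM in B cells and 172, 96.7 and 209 in these macrophages (1.08 ± 0.29, adjusted p = 0.00173). Lgals1 (212, 179.7 and 59.0 against 495, 609 and 576 CPM) fell by 2.30 ± 0.31 (adjusted p = 8.27e-08) and Anxa5 (85.0, 59.9 and 51.6 against 391, 341 and 338 CPM) fell by 2.85 ± 0.32 (adjusted p = 2.06e-09). None of the 3 genes overlapped between the classes. Without mouse 2, 5 of the 10 genes were called, with S100a4 (-5.31, adjusted p = 0.0216) and Vim (adjusted p = 0.00921) lower as well. In that fit 1757 of all 4024 genes were called.

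All 10 genes fell in B cells against monocytes in female mice (18.8% of all genes were called lower and 15.5% higher), and all 10 were lower without overlap in male mice (25.6% of genes). The median log2 fold change of the 10 was -3.27 in female mice, against 0.00 over all genes, and the calls held under every alternative tried. S100a4 had 1 of the 433850 UMIs of female B cells and 241 of the 266790 of monocytes, a ratio of shares of 0.00255 (exact 95% interval 6.43e-05 to 0.0144, counting error only). Lgals3 fell by 4.92 ± 0.56 (adjusted p = 8.86e-09), S100a6 fell by 4.22 ± 0.39 (adjusted p = 8.81e-11) and Anxa2 fell by 4.18 ± 0.43 (adjusted p = 9.53e-10). The smallest difference was that of S100a10, which fell by 1.42 ± 0.29 (adjusted p = 0.000153).

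T cells of female mice had 8 of the 10 genes higher than Fcrls+Ccr2- macrophages and 1 lower, where 17.0% of all genes were called higher and 24.5% lower, and the median over the 10 was 2.67, against -0.09 over all genes. S100a4 was at 458, 1257 and 679 CPM in T cells (5.17 ± 0.56, adjusted p = 1.15e-09), S100a6 at 1674, 4029 and 1642 (4.26 ± 0.35, adjusted p = 2.2e-12) and Lgals3 at 322, 727 and 285 (3.54 ± 0.57, adjusted p = 2.98e-06). In all 3 genes the T cells of every mouse lay above these macrophages of every mouse, and mouse 2 was highest. Anxa5 (156, 151 and 244 CPM) was the gene that fell, by 1.30 ± 0.31 (adjusted p = 0.000614), and Lgals1 (718, 1409 and 489 CPM) was not called (0.27 ± 0.27, 95% interval -0.27 to 0.81). Vim (988, 1848 and 1113 CPM) rose by 1.10 ± 0.32 (adjusted p = 0.00579), a call that was lost without mouse 2 (0.68, adjusted p = 0.0724). With library totals the share of calls higher in lymphocytes than in these macrophages went from 46.8% to 65.4% in B cells, where S100a11 then passed (0.94), and from 41.0% to 58.4% in T cells (shifts of the median of 0.464 and 0.338).

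T cells were also compared with monocytes. In female mice 5 of the 10 fell and 0 rose, where 16.7% of all genes were called lower and 13.5% higher, with a median of -0.62 over the 10 and -0.05 over all genes. Lgals3 (322, 727 and 285 against 2998, 1953 and 781 CPM) fell by 2.00 ± 0.46 (adjusted p = 0.000881), Anxa5 fell by 1.32 ± 0.33 (adjusted p = 0.00241) and Anxa1 fell by 1.17 ± 0.36 (adjusted p = 0.0117). Anxa2 fell by 1.08 ± 0.34 (adjusted p = 0.0133), although its level in monocytes of mouse 3 (240.4 CPM) lay below the T cells of every mouse (285 to 439 CPM). Vim fell by 0.94 ± 0.33 (adjusted p = 0.0252). These calls depended on female mouse 1, whose monocytes were the highest of the 3 mice for each of these genes: without it 0 of the 10 genes passed edgeR's adjusted threshold and 2 had an unadjusted p under 0.05, while 645 of all genes passed in place of 1123. The fold changes of the 5 genes kept their direction without it, at -1.40 for Lgals3, -1.02 for Anxa5, -0.83 for Anxa1, -0.69 for Anxa2 and -0.39 for Vim. Of the 8 monocytes of mouse 1, the 2 with no Ly6c2 UMI had Lgals3, Vim and Anxa2 at 8063, 9913 and 2798 CPM. The 6 with a Ly6c2 UMI were at 1954, 3058 and 948. The 8 monocytes of mouse 2, all with a Ly6c2 UMI, were at 1953, 2135 and 951. DESeq2 called 3 of the 10 (not Lgals3 or Vim), and 3 passed with cells thinned to 2000 UMIs. With the monocytes that held other markers left out, the same 5 genes passed. Library totals moved the median of all genes by -0.161 on the log2 scale here and left the same 5 calls. In male mice, 8 of 10 genes were lower in T cells than in monocytes without overlap (23.9% of genes), Lgals3 by 10.6-fold and Anxa5 by 5.57-fold in the ratio of means, and S100a10 and Lgals1 overlapped.

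S100a4, S100a6, S100a10, S100a11 and Lgals1 were not called between T cells and monocytes. Their log2 fold changes were -0.05 ± 0.44, 0.02 ± 0.31, 0.25 ± 0.27, -0.29 ± 0.25 and -0.02 ± 0.28, with 95% intervals of -0.95 to 0.85, -0.61 to 0.64, -0.30 to 0.81, -0.80 to 0.21 and -0.60 to 0.55. The intervals leave room for differences of close to 1 on the log2 scale in S100a4, so equal levels were not shown.

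**Figure D3:**
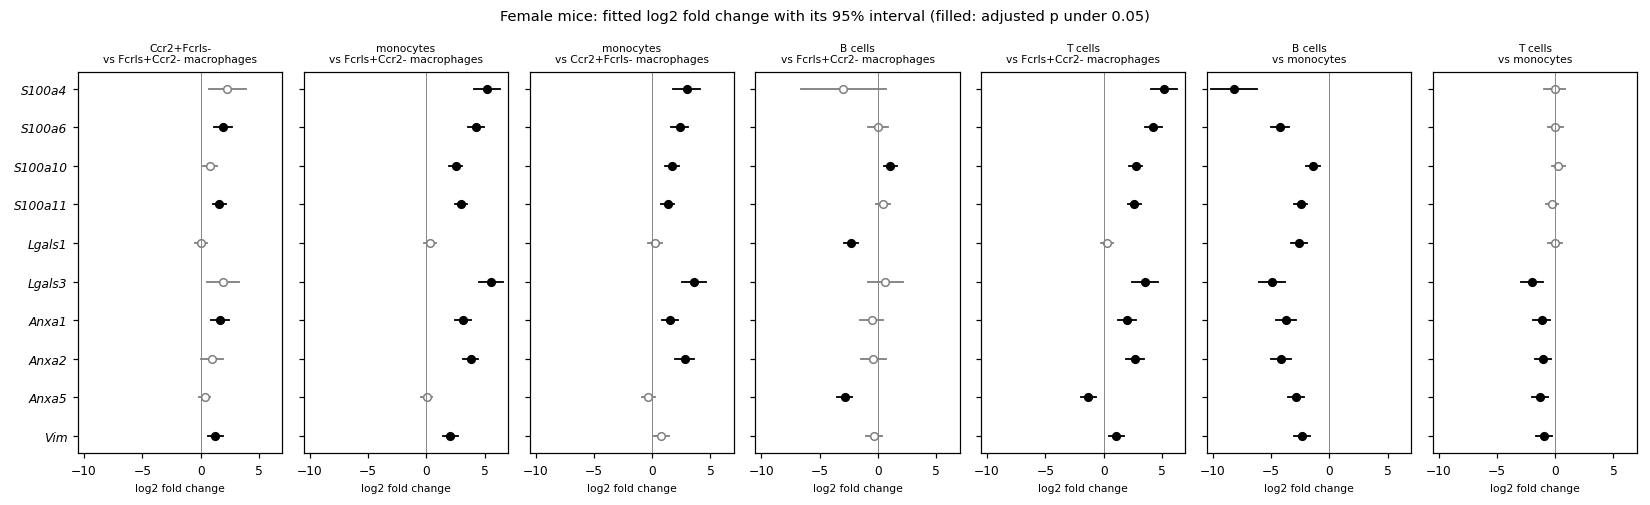
Fitted log2 fold changes (x axis) of the 10 genes (rows) in 7 comparisons of female mice, with their 95% intervals, and filled points at an adjusted p under 0.05 (edgeR). S100a4, S100a6, S100a10 and S100a11 are higher in monocytes and in T cells than in Fcrls+Ccr2- macrophages and are not called between T cells and monocytes, and all 10 genes are lower in B cells than in monocytes.

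The calls in female mice can be listed by gene, but differences between genes were not tested, and the calls against T cells were lost without female mouse 1. Lgals3, Anxa1 and Anxa2 were higher in monocytes than in both macrophage classes, B cells and T cells. Anxa2, however, overlapped between monocytes and T cells, and female mouse 3 went the other way. The 4 S100 genes were higher in monocytes than in both macrophage classes and B cells and were not called against T cells, although S100a4, S100a6 and S100a11 were 2.13-, 1.76- and 2.36-fold lower in T cells of male mice, without overlap. Vim was higher in monocytes than in Fcrls+Ccr2- macrophages, B cells and T cells. Lgals1 and Anxa5 were not called between monocytes and either kind of macrophage, both were lower in B cells, and Anxa5 was lower in T cells as well. Neutrophils, in which S100a6, S100a11, Lgals3, Anxa1 and Anxa2 had means of 4173, 2967, 1048, 6306 and 723 CPM in female mice, were not part of a test. DCs were not part of a test either. Their female means of S100a10, S100a11, Anxa2 and Vim were 1393, 1254, 1016 and 3207 CPM, above 1274, 912, 818 and 2753 in monocytes. Mice of both classes overlapped in these genes, and the other genes had the higher mean in monocytes than in all DCs together. DCs with a Cd209a UMI, however, overlapped with monocytes in S100a4 and S100a6, as given below.

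S100a4 was also followed as the share of cells with a UMI. With each cell thinned to 2000 UMIs but kept in its class set from all UMIs, it was detected in 82.9% ± 8.02 of male monocytes (SD, n = 3 mice), 41.0% ± 12.9 of DCs, 40.1% ± 6.26 of T cells, 11.4% ± 3.29 of Ccr2+Fcrls- macrophages and 0.302% ± 0.523 of Fcrls+Ccr2- macrophages. B cells were at 1.60% ± 1.39, with 17 of their 18 UMIs before thinning in mouse 1. In female mice it was detected in 2.22% ± 1.53 of thinned Fcrls+Ccr2- macrophages and 0 of 99 thinned B cells, which allows a share of up to 3.03%, so that a difference between these classes was not detectable at this depth. Unthinned shares of these 6 classes in male mice were 96.3% ± 4.10, 59.4% ± 21.6, 48.0% ± 15.1, 19.0% ± 5.86, 2.96% ± 2.38 and 1.53% ± 1.33 in the order given, with median depths of 10866.5 UMIs in monocytes, 8513 in Fcrls+Ccr2- macrophages and 3407 in B cells. Thinning left out 4 of 124 monocytes, 11 of 675 Fcrls+Ccr2- macrophages and 11 of 164 B cells. Lgals3 was detected in 92.6% ± 2.00 of thinned male monocytes, 20.7% ± 2.57 of T cells, 19.5% ± 3.48 of Ccr2+Fcrls- macrophages, 3.32% ± 0.82 of Fcrls+Ccr2- macrophages and 5.20% ± 6.91 of B cells. The level in male B cells came mostly from mouse 3 (7.64, 6.13 and 52.5 CPM), and Fcrls+Ccr2- macrophages, at 33.6, 16.6 and 26.5 CPM, lay above B cells in mouse 1 and 2. In female mice the thinned shares of S100a4 were 82.7% ± 6.76 in monocytes, 40.0% ± 12.3 in T cells and 11% ± 4.58 in Ccr2+Fcrls- macrophages.

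DCs were divided by markers of their known subsets, a split chosen after values had been seen and given as a description. DCs with a Cd209a UMI and none of Xcr1 or Clec9a (markers of conventional DC2 and DC1) had S100a4 at 1055, 988 and 971 CPM in male mice, and those with Xcr1 or Clec9a and no Cd209a at 28.0, 11.6 and 23.2. S100a6 was at 3130.3, 3699 and 2544 and 392, 151 and 225 CPM and Lgals3 at 901, 945 and 829 and 98.0, 326 and 243. None of the 3 genes overlapped between the subsets, while S100a11 (1194, 1144 and 1407 and 1274, 1170.3 and 1209 CPM) did. Female mice had S100a4 at 620.2, 928 and 807 and 0, 132 and 0 CPM, S100a6 at 3516, 2879 and 2571 and 129, 1039 and 356, and S100a11 at 1270.4, 1251 and 1402 and 1093, 1447 and 742, again with S100a4 and S100a6 apart and S100a11 overlapping. The subsets held 45 and 46 male cells and 36 and 19 female cells. In S100a4, DCs with Cd209a overlapped with monocytes, which ran from 941 to 1242 CPM in male and 826 to 964 in female mice. They overlapped with monocytes in S100a6 as well (2999 to 3426 CPM in male and 1442 to 3273 in female monocytes). In Lgals3 they lay below the monocytes of male mice (2130 to 2557 CPM). In female mice they overlapped with monocytes in Lgals3 (939, 598 and 614 CPM against 781 to 2998 in monocytes).

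**Figure D4:**
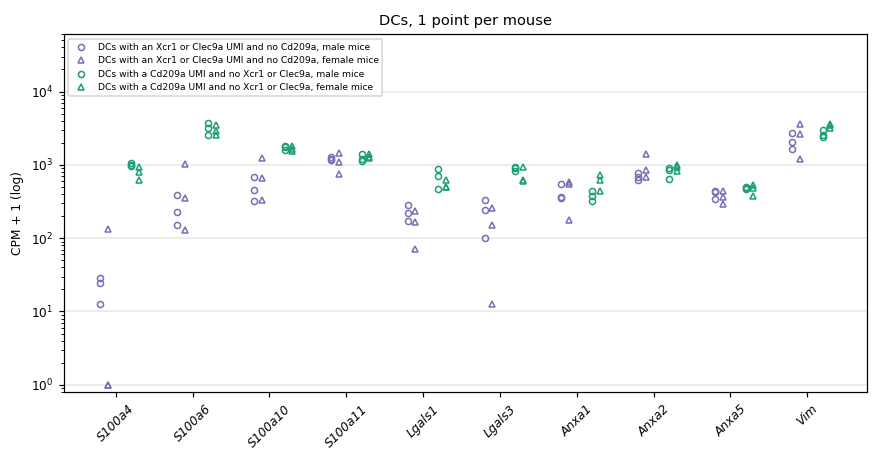
Level of each gene (CPM + 1, log axis) in the DC subsets with Cd209a and with Xcr1 or Clec9a UMIs, with 1 point per mouse (circles, male; triangles, female). S100a4 and S100a6 lie higher in DCs with Cd209a, without overlap within either sex, and S100a11 overlaps between the DC subsets.

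Relatives and partners of the 10 genes were followed in the same fits of female mice. Of the 12 genes of the S100 list 4 passed the filter on low counts, of 7 of the galectin list 3, of 9 other annexins 5 and of 16 partners, receptors and cytoskeletal genes 14. The S100 list includes S100pbp and the galectin list Lgals3bp, which encode binding proteins and are not members of these families. Between Ccr2+Fcrls- and Fcrls+Ccr2- macrophages, 0 of 4 genes of the S100 list, 0 of 3 of the galectin list and 0 of 5 annexins were called by edgeR (579 of all 3709 genes had an unadjusted p under 0.05), and 2 of 14 partners rose, where 1.73% of all genes were called higher. These were Lsp1, an actin-binding protein of leukocytes (186, 149 and 139 against 13.1, 17.0 and 14.1 CPM, 3.38 ± 0.36, adjusted p = 3.55e-08), and Plaur, the urokinase receptor (248, 93.2 and 85.0 against 78.8, 18.7 and 34.7 CPM, 1.66 ± 0.50, adjusted p = 0.0481). In monocytes against Fcrls+Ccr2- macrophages, 8 of 14 partners rose and 1 fell, where 14.9% of all genes were called higher and 19.9% lower. The partners that rose included Itgb7, an integrin chain of homing leukocytes (6.71 ± 0.52, adjusted p = 2.14e-12). Of the 3 genes tested from the galectin list 2 fell: the galectin gene Lgals8 at -2.23 ± 0.58, and Lgals3bp, which encodes a binding protein of Lgals3, at -3.04 ± 0.57. Of the 4 genes tested from the S100 list 1 rose there and 0 fell. Of the other annexins Anxa6 alone rose there (1.12 ± 0.42, adjusted p = 0.038), and it was higher in T cells than in monocytes (1.31 ± 0.42, adjusted p = 0.0149). Anxa3 and Anxa4 were lower in T cells than in monocytes (-4.26 ± 0.89 and -3.92 ± 1.17) and in B cells (-5.08 ± 0.81 and -3.90 ± 0.94). Ahnak, a binding partner of the S100a10 and Anxa2 complex, was higher in T cells (1.02 ± 0.32) and lower in B cells (-2.85 ± 0.46) than in Fcrls+Ccr2- macrophages.

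The genes most like each of the 10 in pattern were found by Pearson's r of log2(CPM + 10) over the 27 sums of male mice (9 classes of 3 mice), among 2591 genes with a mean of at least 50 CPM. These sums share cells and depth between genes, and r is given as a description. S100a4 was nearest to Itgb7 (r = 0.87), Arf5 (0.83) and Arl6ip5 (0.83). S100a6 and S100a11 both had Glipr2 and Ltb4r1, a leukotriene B4 receptor, among their nearest genes (r = 0.95 and 0.92, and 0.95 and 0.97). Lgals3 and Anxa2 were nearest to each other (r = 0.95), Anxa1 to Mcemp1 (0.93), Glrx (0.92) and Il1r2 (0.92), S100a10 to the ribosomal protein genes Rplp0 (0.95) and Rps27a (0.94), and Lgals1 to Mydgf (0.94) and Ddost (0.94). Anxa5 was nearest to the chemokine gene Ccl9 (0.97) and to Cdkn1a (0.96), and Vim, with the weakest match of the 10, to Olfm1 (0.83). Between the 10 genes themselves r ran from -0.57 (Lgals1 and Anxa1) to 0.95 (Lgals3 and Anxa2), and S100a4 and S100a6, although neighbors, had 0.67.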

How the data were processed

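The deposited files held UMI counts per gene and cell, which the authors made with Cell Ranger on mm10 and, for the male cells, filtered and demultiplexed in Seurat, per the labels and the study's methods. A larger matrix of the same lane also held hashtag counts. HTODemux (Seurat 5.3.0) followed by the study's limits (over 200 and under 5000 genes, under 5% mitochondrial UMIs) returned each cell of the male matrix, and 1073 cells of female mice. The hashtag was taken as the mouse.

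UMIs were summed per mouse and class (at least 5 cells). The 27 female sums (9 classes of 3 mice) entered a single edgeR 4.0.16 quasi-likelihood fit with TMM factors and filterByExpr, tested on simulated data. Alternatives were DESeq2 1.42.0, library totals, no filter, the mouse as a block, each mouse left out, a C1q gate at 1%, Scrublet doublets left out and cells thinned to 2000 UMIs. For the fits of thinned cells the classes were set again from the thinned UMIs. Shares of thinned cells kept the classes set from all UMIs. The same mouse gives a sum to every class, which pairs the sums, and the correlation of deviations between classes of a mouse was -0.0896 to 0.109. Scrublet marked 9 male and 1 female cells, so few that leaving them out says little about doublets. Whether it found the doublets within a mouse was not tested, and such doublets may remain. Female mice gave 2272539 to 2959426 UMIs, and intervals on counts cover counting error only. Named genes were the 10 genes, some of the listed relatives that were called, and genes among the 3 nearest by correlation. The members were chosen with results of the male cells known, and the lists with earlier results of these data known.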

Additional observations from a re-analysis of the deposited data

How the results depend on the processing

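Of the 46 member results that passed in the 7 comparisons of female mice, 37 passed under all alternatives, 9 were lost under at least 1 and 0 turned direction. The mouse as a block changed no count of the 10 genes. Thinning to 2000 UMIs lowered the numbers of genes called to 71 (Ccr2+Fcrls- against Fcrls+Ccr2- macrophages), 417 and 302 (monocytes against Fcrls+Ccr2- and Ccr2+Fcrls- macrophages), 947 and 767 (B cells and T cells against Fcrls+Ccr2- macrophages) and 494 and 391 (B cells and T cells against monocytes). Classes were set again from the thinned UMIs, so the cells compared changed as well as their UMIs, and the cause was not tested. Thinning gave 3 of the 10 genes between T cells and monocytes, as did DESeq2. Without the filter, 264 genes passed between the macrophages and 3128 between B cells and Fcrls+Ccr2- macrophages (the cause was not tested), and without the monocytes that held other markers 575 passed against Ccr2+Fcrls- macrophages. Leaving out a mouse gave 71 to 108 genes and 2 to 5 of the 10 genes between the macrophages, and 549 to 697 genes between monocytes and Ccr2+Fcrls- macrophages. It gave 1757 to 1838 genes and 3 to 5 of the 10 genes between B cells and Fcrls+Ccr2- macrophages. Between T cells and monocytes it gave 645 to 999 genes and 0 to 5 of the 10 genes (the 0 by edgeR, with 2 at an unadjusted p under 0.05).

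Fold changes that turned direction were all of genes not called, and the cause was not tested. Lgals1 was -0.14 without the filter and -0.035 to 0.17 without a mouse between the macrophages, -0.17 and -0.21 in monocytes without the cells with other markers (against Fcrls+Ccr2- and Ccr2+Fcrls- macrophages) and -0.25 with thinning. Between T cells and Fcrls+Ccr2- macrophages it was -0.094 to 0.59 without a mouse. Anxa5 in monocytes was -0.014 without the filter and -0.0031 with the stricter C1q gate against Fcrls+Ccr2- macrophages, and 0.17 with library totals, 0.14 with thinning and -0.56 to 0.097 without a mouse against Ccr2+Fcrls- macrophages. In B cells against Fcrls+Ccr2- macrophages, S100a6 was -0.054 without the filter, -0.043 with the stricter gate and -0.46 to 0.41 without a mouse, Lgals3 was -0.27 to 1.48 without a mouse, Anxa2 was 0.079 with library totals and 0.029 with thinning, and Vim was 0.14 with library totals and -1.0 to 0.16 without a mouse. In T cells against monocytes, S100a6 was -0.13 with library totals, -0.10 without the filter, -0.020 with the stricter gate, -0.71 with thinning, -0.61 without the cells with other markers and -0.40 to 0.34 without a mouse. Lgals1 was 0.0017 with DESeq2, 0.023 with thinning, 0.45 without those cells and -0.61 to 0.33 without a mouse, where S100a4 was -0.56 to 0.24 and S100a10 -0.029 to 0.57. Of 490 ratios of male mice, 31 moved by more than the spread between mice. Of the 9 classes of female mice, monocytes had the fewest cells (23) and Fcrls-Ccr2- macrophages the fewest UMIs (103074).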
